A study of Mus musculus with 33 samples.

Results

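Microglia sorted from the cerebellum (Cb) of mice at postnatal day (P) 7 were compared with Cb microglia at P42. The 7 libraries, 3 at P7 and 4 at P42, were taken from the 33 libraries of the count table by the region and age in their labels. All mice were C57BL/6 J wild type, and no allele or treatment was added. The P7 libraries came from 2 male mice and 1 female mouse, and the P42 libraries from 2 males and 2 females. Each library holds bulk RNA of cells gated as CD45+, CD11b+ and Gr1- by fluorescence-activated sorting, so every CD45+ CD11b+ Gr1- cell of the dissected cerebellum, microglia or not, could enter it. The study sampled corpus callosum (CC), cortex (Cx) and Cb at P7, P10 and P42 to compare microglia of white and grey matter in the maturing brain. All 33 libraries entered the model that estimated the spread for every test. Beside this, the Cb at P10, and the Cx and CC at P7 and P42, are used below only to place the change from P7 to P42.

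Microglia are the resident macrophages of the brain. They enter the neural tube before birth, multiply in the tissue after birth, and take up dying cells and debris while neurons and myelin form. In the cerebellum the granule neurons are still being born after birth, and amoeboid, phagocytic microglia gather in its developing white matter before the cells become ramified.

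The libraries held 35513629 to 38670110 reads on genes at P7 and 28692397 to 45057646 at P42. Values below are CPM (counts per 1000000 reads on genes, scaled between libraries), given as the mean ± SD over libraries. The homeostatic microglia genes were high in all 7 libraries, with Cx3cr1 at 2046 ± 196 CPM at P7 and 3069 ± 167 CPM at P42. Mitochondrial genes took 1.04 to 1.38% of the reads at P7 and 0.442 to 0.517% at P42, without overlap. Summed border macrophage markers (12 genes, among them Mrc1, Cd163, Lyve1 and Pf4) stood at 270 to 310 CPM at P7 and 38.2 to 52.2 CPM at P42. All 12 had reads, and none was at 3 reads or fewer in all P42 libraries. Granule cell markers summed to 9.41 to 23.2 CPM at P7 and 0.667 to 2.55 CPM at P42, and 6 of the 10 were at 3 reads or fewer in every P42 library. Red cell markers ranged from 0.748 to 87.0 CPM at P7 and from 0 to 0.414 CPM at P42. Purkinje cell markers summed to 2.73 to 6.17 CPM at P7 and 7.96 to 15.4 CPM at P42, with 4 of the 6 up. Astrocyte and Bergmann glia markers summed to 92.3 to 135 and 144 to 157 CPM, though 7 of the 10 had a negative log2 fold change. The 4 tested lymphocyte markers summed to 743 to 754 and 518 to 560 CPM. Xist stood at 24.5 CPM in P7 replicate 1, which is labelled male and carried Y-linked transcripts, against 0.0282 CPM in the other P7 male and 164 CPM in the P7 female. The part of these markers in the gene changes was not tested. The uneven sexes were addressed only by a fit with the labelled sex as a covariate, given in the last section. In bulk RNA, fewer cells of a type and less RNA per cell cannot be told apart.

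From P7 to P42, 363 of 20917 genes tested rose and 819 fell. These are 1.74% and 3.92% of the genes tested. A gene was called by edgeR's quasi-likelihood test at a Benjamini-Hochberg adjusted p of 0.01 or less and a log2 fold change of at least 1 in size, and adjusted p below is this value over all genes tested. The median log2 fold change of all genes tested was -0.02. In 2701 genes (12.9%) all 4 P42 libraries lay above all 3 P7 libraries, and in 3486 (16.7%) all lay below. Gene lists are described by their counts of calls and their median log2 fold change beside these shares. Of the 1182 genes called, 992 had a mean of at least 10 CPM at 1 age and no overlap. The shares over all genes tested include genes with few reads, so they may understate those of well-read genes. The lists were chosen with earlier results of these data known, so a list's share is a description and not a test. The p-values measure only the spread between libraries of a group, estimated over all 33 libraries of the fit. The labels give no date or batch, and a batch that ran with age cannot be told apart from age.

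The genes with the largest decreases belonged to cell division, lipid transport and the extracellular space. Gpx3, which encodes a secreted glutathione peroxidase (chr11:54902453-54910377), stood at 222, 254 and 213 CPM at P7 and at 0.207, 0.978, 0.0783 and 0.667 CPM at P42. The bone matrix protein gene Spp1, also called osteopontin, came next. The division genes Top2a, Pbk, Rrm2, Ccna2, Birc5, Ccnb2 and Ube2c followed, and the apolipoprotein gene Apoc1 was the last of the 10. Among the largest increases, Lrrc3, which encodes a leucine-rich repeat membrane protein, rose from 39.8 ± 8.28 CPM (n = 3) to 324 ± 28.3 CPM (n = 4), and the sulfotransferase gene Sult1a1 rose from 11.4 ± 1.34 to 92.7 ± 10.6 CPM. Lrrc3 had a log2 fold change of 3.02 (SE 0.19, adjusted p = 8e-13), and Sult1a1 of 3.02 (SE 0.16, adjusted p = 2.1e-14). Csmd3 rose from 4.36 ± 1.62 to 48.1 ± 16.5 CPM, with 28.4 to 66.0 CPM in the P42 libraries. The histone gene Hist2h4 rose from 0.811 ± 0.471 to 13.6 ± 8.28 CPM, and its near-identical copies make its counts uncertain, because reads mapping to several places were discarded. Tnfsf13b, Il6 and Tgm2 are described below. The 3 remaining genes were Ipcef1, at 1.10 and 22.3 CPM, Stk26, at 1.47 and 18.5 CPM, and 1810011O10Rik, which stood at 24.8 to 32.7 CPM at P42. The call of 1810011O10Rik was lost without any 1 of the P7 libraries (adjusted p 0.014 to 0.026). That of Stk26 was lost without P7 replicate 1, 2 or 3 or P42 replicate 1, 2 or 3 (adjusted p 0.011 to 0.051), and that of Ipcef1 without P7 replicate 1 or 2 (adjusted p = 0.027 and 0.023).

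Genes of cell division fell together. All 25 genes of the mitosis list, which holds cyclins, mitotic kinases, motors and kinetochore proteins, fell, with a median log2 fold change of -7.77, or -7.29 with the 6 genes at or under 3 reads in every P42 library set at their bound. Top2a, the topoisomerase that untangles chromosomes before they separate (chr11:98992943-99024189), stood at 180, 169 and 130 CPM at P7 and at 0.0689, 2.55, 0.365 and 0 CPM at P42 (log2 fold change -7.77, SE 0.64, adjusted p = 1.7e-10). Mki67, the proliferation antigen Ki-67, stood at 57.2, 70.2 and 42.8 CPM at P7 and at 0.207, 0.267, 2.30 and 0.253 CPM at P42. Every P7 library thus lay far above every P42 library for both genes, and the P42 libraries differed among themselves at low levels. Ube2c, the ubiquitin-conjugating enzyme of the anaphase-promoting complex (chr2:164769898-164778822), fell from 55.1 ± 3.74 CPM to a total of 1 read in the 4 P42 libraries. Against a limit of 3 reads per library it was at least 649-fold lower. Pbk, a mitotic kinase, was at least 1080-fold lower by the same limit, with 2 reads in all at P42. Cdk1, the kinase that drives entry into mitosis, kept 2.65 ± 1.24 CPM at P42, from 123 ± 8.71 CPM at P7.

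Most of the fall in division genes lay after P10. At P10 the mitosis list stood at a median of 83.7% of its P7 level, and at P42 at 0.466%. Top2a stood at 141 ± 26.8 CPM (n = 4) at P10, and Mki67 at 53.3 ± 5.56 CPM. The step from P7 to P10 had an adjusted p of 0.98 for Top2a and 0.094 for Birc5, a survivin-encoding gene that went from 78.5 ± 9.00 to 44.5 ± 3.20 and then to 0.0641 ± 0.111 CPM.

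Promoters of 4 genes of this group are shown because the genes fell together. The sequences are the 250 bases before the start of the RefSeq transcript (GRCm38.p6), 5′ to 3′ on the gene's strand. Capitals mark CCAAT and the cell cycle genes homology region (CHR), searched as TTTGAA or TTCGAA, both on either strand.
Ube2c (chr2:164769679-164769928, plus strand): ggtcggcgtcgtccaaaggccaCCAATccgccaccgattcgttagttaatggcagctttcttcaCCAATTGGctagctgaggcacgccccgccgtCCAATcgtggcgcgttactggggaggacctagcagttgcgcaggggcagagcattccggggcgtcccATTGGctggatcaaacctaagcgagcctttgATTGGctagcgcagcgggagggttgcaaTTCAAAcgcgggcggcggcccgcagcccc
Ccnb2 (chr9:70421555-70421804, minus strand): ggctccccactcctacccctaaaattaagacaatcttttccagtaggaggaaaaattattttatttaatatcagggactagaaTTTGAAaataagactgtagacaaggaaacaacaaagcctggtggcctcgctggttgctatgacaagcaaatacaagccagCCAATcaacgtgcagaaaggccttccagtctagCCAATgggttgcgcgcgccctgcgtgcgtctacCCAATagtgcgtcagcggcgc
Top2a (chr11:99024190-99024439, minus strand): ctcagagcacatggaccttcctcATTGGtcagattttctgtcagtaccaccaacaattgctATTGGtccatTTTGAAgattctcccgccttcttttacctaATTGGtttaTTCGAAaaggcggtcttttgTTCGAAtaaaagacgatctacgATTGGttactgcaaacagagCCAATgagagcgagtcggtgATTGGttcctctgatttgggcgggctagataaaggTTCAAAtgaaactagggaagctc
Birc5 (chr11:117848987-117849236, plus strand): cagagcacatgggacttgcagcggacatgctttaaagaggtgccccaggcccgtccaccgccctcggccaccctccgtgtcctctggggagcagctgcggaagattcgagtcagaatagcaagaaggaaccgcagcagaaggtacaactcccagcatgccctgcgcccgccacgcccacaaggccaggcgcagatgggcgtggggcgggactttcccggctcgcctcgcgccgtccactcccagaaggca

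Ube2c, Ccnb2 and Top2a held both motifs in this window, and Birc5 held neither. Over the RefSeq windows from 250 bases before to 50 bases after the start, 16 of the 21 mitosis genes found in the table (76.2%) had a CHR and 18 (85.7%) had CCAAT. Of the 27025 genes with a promoter in the table, 21.7% had a CHR and 41.1% had CCAAT. In the DNA replication list, 20 genes were found, of which 4 (20.0%) had a CHR, 13 (65.0%) had CCAAT and 7 (35.0%) had TTTCCCGC or TTTGGCGC, a form of the E2F motif, against 1.8% of all promoters. The E2F letters were in none of the 21 mitosis promoters. GAAANNGAA, the core of the interferon-stimulated response element, was in 11 of 16 interferon response promoters (68.8%) and in 9.76% of all promoters. Among the 12094 genes with a promoter that were also tested here, 16.6% had a CHR and 42.5% had CCAAT. The E2F letters were in 3.14% of them and GAAANNGAA in 8.87%. A match to these short letters is a description and not a binding site.

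DNA replication genes fell less far than the mitosis genes. In the list of 25, 23 fell (92%, beside 3.92% of all genes tested), with a median log2 fold change of -2.95. All 25 had every P42 library below every P7 library, as in 16.7% of all genes tested. Mcm5, a subunit of the replicative helicase, stood at 110, 88.0 and 143 CPM at P7 and at 5.20, 7.65, 11.9 and 2.21 CPM at P42 (log2 fold change -4.07, SE 0.39, adjusted p = 3.6e-09). Mcm6, of the same helicase, kept 20.5 ± 3.58 CPM from 168 ± 16.3 CPM. Pcna, the sliding clamp of the replication fork, fell from 52.0 ± 6.03 to 19.9 ± 1.39 CPM, so that more of it was left at P42 than of the helicase genes. The nucleotide-making subunit gene Rrm2 fell from 113 ± 14.5 to 0.277 ± 0.508 CPM, and the licensing factor gene Cdc6, at 10.9 ± 2.44 CPM at P7, was at least 128-fold lower at the limit of 3 reads per library. The other 2 genes, Gins1 and Cdc45, had log2 fold changes of -1.88 and -2.60 with adjusted p of 0.021 and 0.033, and limma-voom called both lower (adjusted p = 0.0086 and 0.00053).

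Inhibitors of the cell cycle moved both ways. Of 15, 2 rose and 3 fell (13.3% and 20%, beside 1.74% and 3.92% of all genes tested). The median log2 fold change was -0.08. Btg2, an antiproliferative gene that is also an immediate early gene, rose from 108 ± 6.15 to 308 ± 7.82 CPM (log2 fold change 1.52, SE 0.13, adjusted p = 3.7e-10). Cdkn2c, which encodes the inhibitor p18 of the G1 kinases, fell from 58.7 ± 3.55 to 10.0 ± 4.36 CPM. Cdkn1c stood at 5.25 ± 0.456 and 11.3 ± 1.6 CPM (adjusted p = 0.0096), and its call was lost in 6 of the 7 fits that left out 1 Cb library (adjusted p 0.015 to 0.048). It held only without P42 replicate 4.

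**Figure D1:**
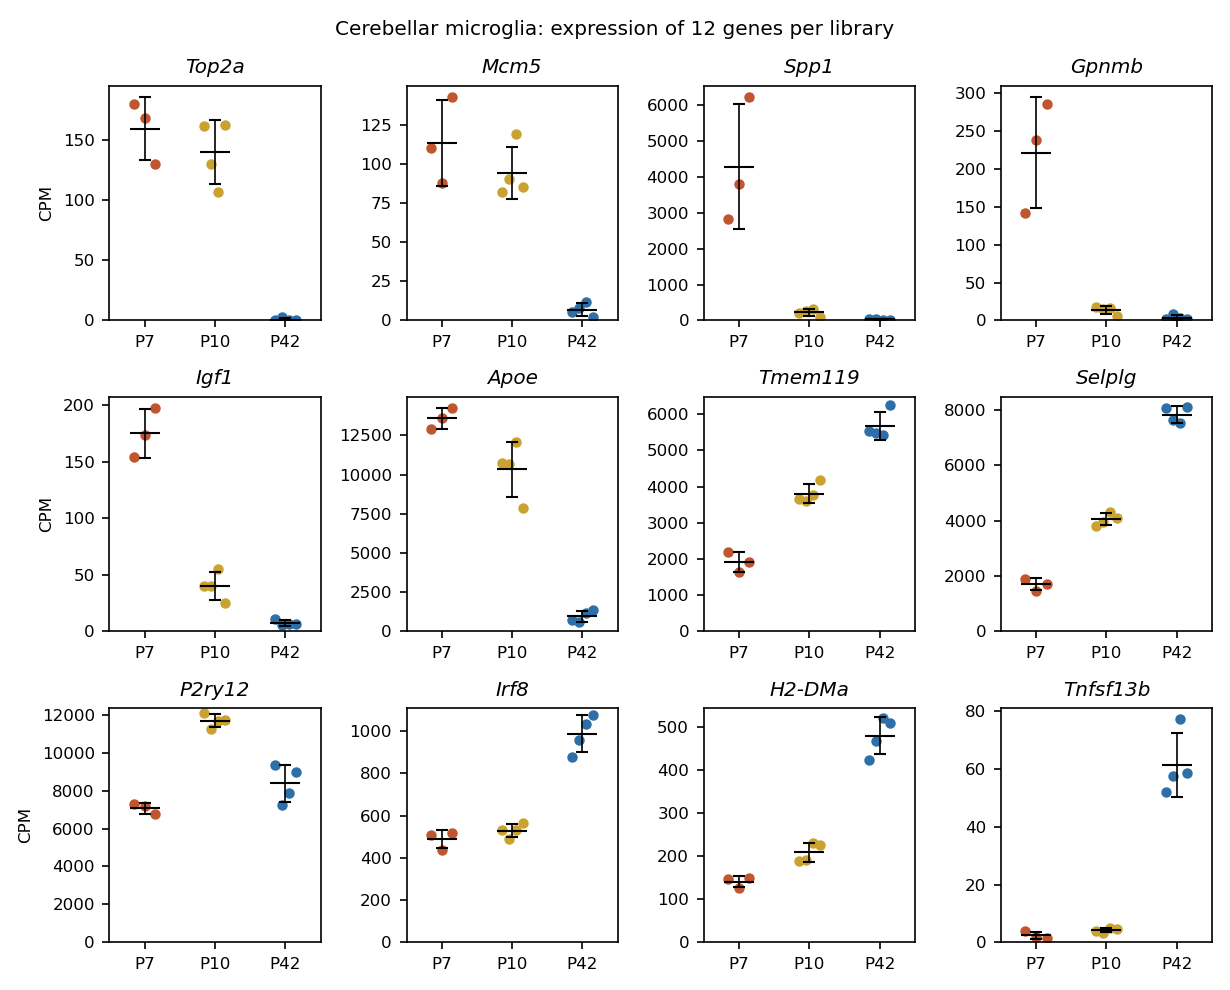
Each point is 1 library of Cb microglia, in CPM on a linear axis from 0, at P7 (3 libraries), P10 (4) and P42 (4); bars are the mean ± SD. Top2a and Mcm5 were still near their P7 level at P10, Spp1, Gpnmb and Igf1 had already dropped, Tmem119 and Selplg climbed at both steps, P2ry12 was highest at P10, and Irf8 and Tnfsf13b rose after P10.

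Of the 12 genes that the study groups as microglial priming, 6 fell and none rose, with a median log2 fold change of -2.52. The 6 are 50% of the list, beside 3.92% of all genes tested. In 10 every P42 library lay below every P7 library, as in 16.7% of all genes tested. Spp1 (chr5:104435118-104441050) stood at 2825, 3814 and 6228 CPM at P7, at 222 ± 94.5 CPM at P10 and at 46.8, 37.8, 23.6 and 15.6 CPM at P42 (log2 fold change -7.12, SE 0.80, adjusted p = 6.3e-08). The P7 libraries differed widely among themselves, and the lowest of them was still far above the highest P42 library. Gpnmb, a membrane glycoprotein of lipid-laden and damage-associated macrophages (chr6:49036546-49070929), went from 221 ± 73.3 to 13.7 ± 5.37 and 3.84 ± 3.40 CPM. Igf1, the insulin-like growth factor (chr10:87858265-87937042), went from 175 ± 21.7 to 40.1 ± 12.3 and 7.39 ± 2.5 CPM. The step from P7 to P10 alone had adjusted p of 0.00044 for Spp1, 0.0026 for Gpnmb and 0.0057 for Igf1. Limma-voom did not call Spp1 for P42 against P7 (log2 fold change -7.24, adjusted p = 0.11).

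Clec7a, Lgals3 and Anxa5 had lower means at P10 than at either other age. Clec7a, the beta-glucan receptor dectin-1, stood at 141 ± 12.7 CPM at P7, 59.4 ± 11.7 CPM at P10 and 121 ± 10.3 CPM at P42. The galectin gene Lgals3 stood at 31.1 ± 14.5, 4.58 ± 1.6 and 28.4 ± 9.79 CPM. From P10 to P42 Clec7a went up by 1.03 and Lgals3 by 2.63 on the log2 scale (adjusted p = 0.0035 and 0.0065). For P42 against P7 their adjusted p were 0.64 and 0.94, and the libraries overlapped. Anxa5, which binds phosphatidylserine, went from 211 ± 35.8 to 58.2 ± 11.6 and then 104 ± 14.3 CPM (0.84 from P10 to P42, adjusted p = 0.0018). Its log2 fold change of -1.02 from P7 to P42 lost its call without P7 replicate 3 (-0.85), P42 replicate 1 (-0.89) or P42 replicate 2 (-0.98). Itgax, the integrin CD11c, stood at 32.3 ± 5.08, 10.4 ± 2.73 and 12.8 ± 1.34 CPM (adjusted p = 0.033 for P42 against P7), and stayed low at P42. Limma-voom called it lower (adjusted p = 0.00094), as did edgeR on the Cb P7 and P42 libraries alone (adjusted p = 6e-04).

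Mrc1, the mannose receptor, is like F13a1 both a priming gene and a marker of border macrophages. It stood at 233, 195 and 176 CPM at P7 and at 33.2, 16.6, 30.6 and 20.6 CPM at P42 (log2 fold change -3.0, SE 0.52, adjusted p = 6.8e-05), and made up most of the summed border macrophage markers at P7. Folr2, another marker on that list, fell from 16.1 ± 3.79 to 0.467 ± 0.295 CPM. These 2 were the only markers called of the 12, and 10 were not called. In 7 of the 12 every P42 library lay below every P7 library, as in 16.7% of all genes tested, and in 5 the libraries overlapped. The part of border macrophages in these values was not tested. Gas7, a growth arrest-specific gene of the priming group, fell from 23.2 ± 2.18 to 3.05 ± 2.06 CPM. The study chose its phagocytosis genes among those regulated in these libraries, so their direction is not independent evidence. Of these 5, Abca1 and Scarb1 fell and none rose (median log2 fold change -1.79).

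**Figure D2:**
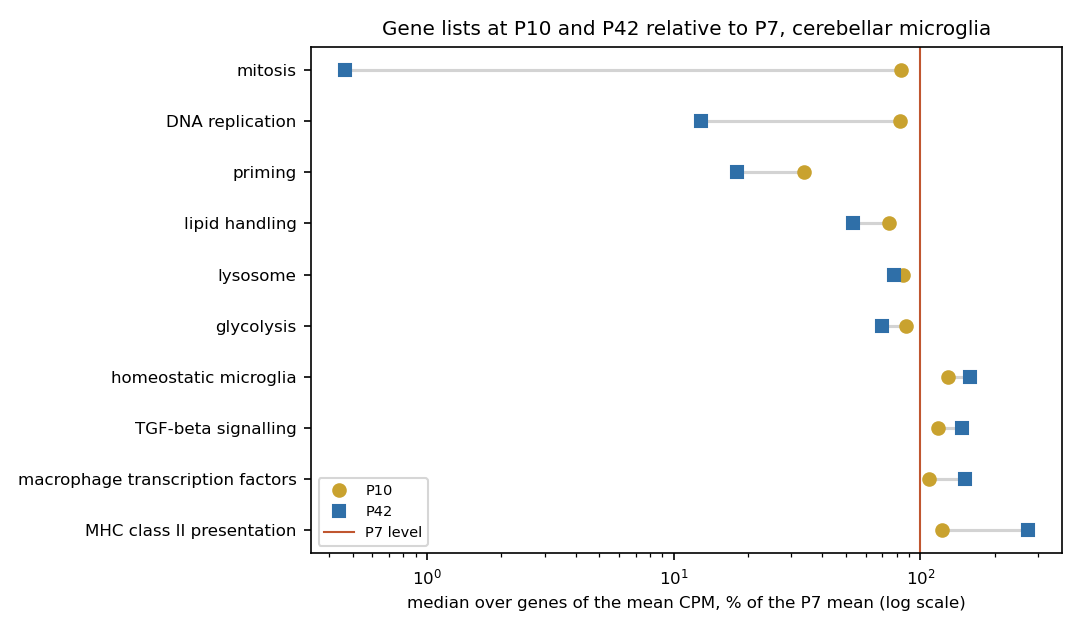
For each gene list, the points give the median over its genes of the mean CPM at P10 and at P42, in percent of the P7 mean, on a log axis; the line marks the P7 level. Mitosis and DNA replication genes stood at 83.7% and 82.9% at P10 and fell afterwards to 0.466% and 12.9%, whereas the priming genes were already at 33.8% at P10 and at 18.1% at P42.

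Of 33 genes of lipid handling, 14 fell (42.4%, beside 3.92% of all genes tested) and none rose. Those that fell covered lipoproteins, uptake, efflux, storage and synthesis, and the list had a median log2 fold change of -0.76. Apoe, the main apolipoprotein of the brain (chr7:19696109-19699188), stood at 12900, 13600 and 14260 CPM at P7 and at 732, 592, 1164 and 1344 CPM at P42 (log2 fold change -3.83, SE 0.23, adjusted p = 3.1e-13). At P10 it was at 10350 ± 1762 CPM, close to P7. Limma-voom gave Apoe a similar log2 fold change of -3.82 without calling it (adjusted p = 0.45). Apoc1, the neighbouring apolipoprotein gene, fell from 90.0 ± 29.5 to 0.690 ± 0.608 CPM. The lipoprotein lipase gene Lpl fell from 809 ± 135 to 223 ± 22.6 CPM, the fatty acid carrier Fabp5 from 48.9 ± 12.0 to 2.49 ± 1.13 CPM, and the lipid droplet coat protein gene Plin2 from 346 ± 38.3 to 93.3 ± 16.1 CPM. Fabp5 and Plin2 had dropped to 9.21 ± 2.28 and 120 ± 13.5 CPM by P10. The cholesterol exporter Abca1 stood at 728, 738 and 579 CPM at P7 and at 190, 180, 176 and 208 CPM at P42 (log2 fold change -1.85, SE 0.19, adjusted p = 1.2e-08). Scd2, a fatty acid desaturase, fell from 502 ± 10.2 to 68.4 ± 7.01 CPM, and the fatty acid synthase gene Fasn from 30.6 ± 7.72 to 7.11 ± 1.47 CPM. The exporter gene Abcg1 fell from 263 ± 18.7 to 126 ± 16.7 CPM, with a log2 fold change of -1.07 that dropped to the limit of 1 or under it without P7 replicate 2, P42 replicate 1 or P42 replicate 2 (-1.0, -0.97 and -1.0).

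Most homeostatic microglia genes were not called. Of 20, 3 rose and 1 fell (15% and 5%, beside 1.74% and 3.92% of all genes tested). Without P42 replicate 3, 7 were called higher, and 5 without P7 replicate 1. The median log2 fold change was 0.67. In 14 every P42 library lay above every P7 library, as in 12.9% of all genes tested. Tmem119, a membrane protein used to tell microglia from other macrophages (chr5:113793729-113800516), stood at 2184, 1634 and 1924 CPM at P7 and at 5530, 5475, 5413 and 6245 CPM at P42 (log2 fold change 1.57, SE 0.11, adjusted p = 5.3e-12). Selplg, the ligand of P-selectin (chr5:113818536-113832644), rose from 1702 ± 213 to 7837 ± 304 CPM, passing 4047 ± 217 CPM at P10. Cst3, the secreted protease inhibitor cystatin C (chr2:148871722-148875692), rose from 17260 ± 775 to 38120 ± 5201 CPM, a call that limma-voom did not make (log2 fold change 1.14, adjusted p = 0.85). Olfml3, Tgfbr1 and Cx3cr1 had log2 fold changes of 0.96, 0.90 and 0.59, each under the limit of 1 with adjusted p of 7.2e-12, 2.9e-06 and 1.5e-08. Without P42 replicate 3, Olfml3 and Tgfbr1 passed it (1.02 and 1.01). Csf1r, the receptor that microglia need to survive, stood at 12080 ± 884 and 15410 ± 662 CPM.

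P2ry12 was highest at P10. This receptor for ADP (chr3:59216272-59262871) stood at 7068 ± 286 CPM at P7, 11670 ± 347 CPM at P10 and 8373 ± 972 CPM at P42, and the P7 and P42 libraries overlapped (adjusted p = 0.081). The matrix protein gene Sparc had the same shape, with 7957 ± 215, 12310 ± 569 and 6892 ± 373 CPM. Fcrls, an Fc receptor-like gene of mouse microglia (chr3:87250758-87263738), was the member that fell, from 7208 ± 121 to 3476 ± 248 CPM (log2 fold change -1.05, SE 0.08, adjusted p = 4e-11), and its value without P42 replicate 2 was -0.99. The transcription factor gene Sall1 stood at 309 ± 19.4 and 384 ± 30.6 CPM (adjusted p = 0.023), and Trem2, a lipid-sensing receptor, at 1668 ± 2.01 and 1898 ± 237 CPM (adjusted p = 0.19).

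Of 21 tested genes of TGF-beta signalling, the pathway that keeps microglial identity, 2 rose and none fell (median log2 fold change 0.56). The 2 are 9.52% of the list, beside 1.74% of all genes tested. Both were genes that dampen the pathway. The inhibitory Smad gene Smad7 rose from 28.1 ± 2.23 to 60.5 ± 13.5 CPM, and the Smad corepressor gene Tgif1 from 29.4 ± 1.6 to 70.2 ± 4.46 CPM, with adjusted p of 8.6e-05 and 6.2e-05.

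Transcription factors of macrophages rose in 8 of 30 cases, 26.7% against 1.74% of all genes tested, and none fell. The alternative fits called 6 to 9 higher. DESeq2 and the fit on the Cb P7 and P42 libraries alone each called 1 lower. Irf5, an interferon regulatory factor, stood at 201, 200 and 223 CPM at P7 and at 463, 503, 520 and 621 CPM at P42 (log2 fold change 1.34, SE 0.10, adjusted p = 4.9e-11), and it overlaps an exon of Tnpo3 on the other strand. Irf1, of the same family, rose from 41.5 ± 7.14 to 94.8 ± 14.9 CPM. Irf8, needed for microglia to form (chr8:120736358-120756694), stood at 508, 439 and 518 CPM at P7 and at 880, 960, 1034 and 1078 CPM at P42. Its log2 fold change of 1.02 fell to 0.99 without P7 replicate 2 and to 0.97 without P42 replicate 4. Bhlhe41, a circadian repressor, rose from 51.3 ± 3.94 to 141 ± 9.43 CPM, and Cebpa, a myeloid factor, from 48.6 ± 4.46 to 108 ± 12.3 CPM. Klf6 rose from 173 ± 7.15 to 432 ± 46.4 CPM. Klf2 stood at 21.7 ± 2.57 and 45.0 ± 13.0 CPM (adjusted p = 0.0064), and was not called without P7 replicate 1, 2 or 3 or P42 replicate 4 (adjusted p = 0.018, 0.038, 0.023 and 0.041). Spi1, which encodes the myeloid master regulator PU.1, stood at 348 ± 25.4 and 389 ± 50.3 CPM with overlapping libraries (adjusted p = 0.36).

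Of 19 immediate early genes that tissue dissociation is known to induce, 9 rose (47.4%, beside 1.74% of all genes tested) and none fell. Their summed level was 599 to 723 CPM at P7, 868 to 941 CPM at P10 and 1550 to 1840 CPM at P42. Jun stood at 112, 88.0 and 106 CPM at P7 and at 375, 472, 383 and 412 CPM at P42. Fos, the partner of Jun, stood at 3.17 ± 0.457 and 11.3 ± 3.94 CPM, and was not called without P7 replicate 2 or 3 or P42 replicate 2 (adjusted p = 0.018, 0.017 and 0.015). Rgs1 rose from 3.96 ± 1.58 to 24.1 ± 3.73 CPM. These genes moved beside Btg2, Klf2, Klf6, Il6 and the other inducible genes described here, and their part in those changes was not tested.

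**Figure D3:**
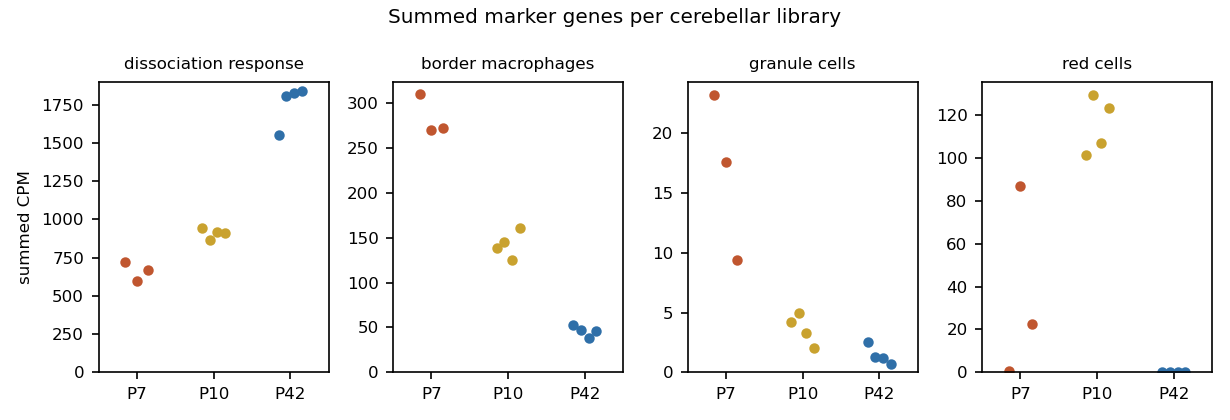
Each point is 1 Cb library, and the axis gives the summed CPM of the dissociation response list and of markers of border macrophages, granule cells and red cells, from 0 in each panel. The dissociation response rose from 599 to 723 CPM at P7 to 1550 to 1840 CPM at P42, and border macrophage markers went down from 270 to 310 CPM to 38.2 to 52.2 CPM.

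Genes of antigen presentation by MHC class II rose in 6 of 14 cases, 42.9% beside 1.74% of all genes tested, and none fell (median log2 fold change 1.44). Without P7 replicate 1 the count was 3. H2-DMa, a chain of the peptide exchange factor H2-DM (chr17:34135182-34139101), stood at 148, 126 and 149 CPM at P7 and at 425, 469, 522 and 510 CPM at P42 (log2 fold change 1.77, SE 0.12, adjusted p = 2.2e-12). Its partner gene H2-DMb1 rose from 56.5 ± 1.94 to 139 ± 17.2 CPM, and H2-Ob, a chain of the inhibitor of that exchange, from 30.2 ± 0.942 to 90.2 ± 18.8 CPM. The antigen-presenting molecules themselves were low. H2-Aa stood at 0.198 ± 0.299 and 10.5 ± 8.27 CPM and H2-Eb1 at 0.0470 ± 0.0814 and 6.88 ± 5.96 CPM, neither called by edgeR in the fit of all libraries (adjusted p = 0.030 and 0.013). DESeq2 called both higher (adjusted p = 0.0014 and 3.6e-05), as did edgeR on the Cb P7 and P42 libraries alone (adjusted p = 0.0068 and 0.0019), and limma-voom called H2-Eb1 (adjusted p = 8e-05). H2-Ab1 stood at 19.5 ± 4.38 and 41.3 ± 13.6 CPM (adjusted p = 0.0040), and was not called without P7 replicate 1 or 2 or P42 replicate 1 or 4. The log2 fold changes were then 1.07, 0.99, 1.04 and 0.89, with adjusted p of 0.021, 0.029, 0.010 and 0.025. The edgeR fit on the Cb P7 and P42 libraries alone did not call H2-Ab1 either (log2 fold change 1.085, adjusted p = 0.018). Cd74, the invariant chain, stood at 104 ± 3.41 and 95.5 ± 36.5 CPM (adjusted p = 0.88). The calls of the remaining 2 genes, H2-DMb2 and Cd80, were lost without P7 replicate 1 (adjusted p = 0.021 and 0.025), that of H2-DMb2 also without P7 replicate 3 (adjusted p = 0.024) and that of Cd80 without P42 replicate 3 (adjusted p = 0.011). H2-DMb1 and H2-DMb2 are close paralogs.

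In the class I pathway 2 of 20 genes rose (10%, beside 1.74% of all genes tested). The nonclassical molecule gene H2-T23 rose from 75.2 ± 4.43 to 261 ± 36.3 CPM, and the peptide transporter gene Tap2 from 90.1 ± 2.20 to 198 ± 27.7 CPM. H2-K1, a classical class I gene, stood at 356 ± 18.2 and 700 ± 93.9 CPM, with a log2 fold change of 0.98, just under the limit, and above it without P7 replicate 1 or 2 or P42 replicate 1 or 2 (1.01 to 1.10). Tap2 overlaps exons of annotated genes on the other strand, and the study describes its counting settings as essentially standard without naming a strand option. Of 25 interferon response genes none rose and 1 fell (median log2 fold change 0.48). That is 4% called lower, close to the 3.92% of all genes tested. Limma-voom called 1 and the fit on the Cb P7 and P42 libraries alone called 2 as higher. The gene that fell, Ifi27l2a, stood at 44.9 ± 7.22 and 17.6 ± 3.32 CPM, and its call was lost without any 1 of the 7 libraries (adjusted p 0.016 to 0.055).

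Receptors and ligands of phagocytosis split by direction. Of 28, 2 rose and 3 fell (7.14% and 10.7%, beside 1.74% and 3.92% of all genes tested). The median log2 fold change was -0.01. Cd14, the co-receptor for bacterial lipopolysaccharide, stood at 284, 254 and 282 CPM at P7 and at 1410, 1368, 1309 and 1256 CPM at P42 (log2 fold change 2.29, SE 0.12, adjusted p = 3e-14). Itgb2, the beta chain of complement receptor 3, rose from 379 ± 27.8 to 792 ± 55.3 CPM. Gas6, the ligand that bridges phosphatidylserine to the receptors Axl and Mertk, fell from 823 ± 38.7 to 154 ± 21.5 CPM. Mertk itself stood at 358 ± 27.5 and 648 ± 45.6 CPM, with a log2 fold change of 0.85 under the limit. The scavenger receptor gene Stab1 and the GTPase gene Rac2 had log2 fold changes of -1.07 and -1.04. Stab1 dropped under the limit of 1 without P7 replicate 1 or P42 replicate 1 (-0.96 and -0.97), and Rac2 without P7 replicate 3, P42 replicate 1 or P42 replicate 3 (-0.99, -0.97 and -1.0).

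Complement genes gave 1 that rose and 2 that fell among 17 tested (5.88% and 11.8%, beside 1.74% and 3.92% of all genes tested). There were 2 that rose without P7 replicate 2, and 4 that fell by limma-voom or in the fit on the Cb P7 and P42 libraries alone. C5ar1, the receptor of the anaphylatoxin C5a, rose from 183 ± 15.6 to 553 ± 51.9 CPM, after 154 ± 9.82 CPM at P10. C1qa, a chain of the first component, stood at 5117 ± 180 and 8370 ± 684 CPM, with a log2 fold change of 0.71 under the limit. Cfb, the factor B of the alternative pathway, stood at 2.19 ± 0.393 CPM at P7 and had no read at P42, which is at least 25.8-fold lower at the limit of 3 reads per library. C2, its counterpart in the classical pathway, fell from 10.5 ± 1.79 to 0.435 ± 0.327 CPM, and was not called without P42 replicate 1 (adjusted p = 0.011). C2 overlaps an exon of Zbtb12 on the other strand.

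Among 23 tested cytokines and growth factors, 4 rose (17.4%, beside 1.74% of all genes tested), 2 fell (8.7%, beside 3.92%) and 17 were not called. The fit on the Cb P7 and P42 libraries alone called 7 higher. Tnfsf13b, the B cell activating factor BAFF (chr8:10006467-10039072), stood at 3.90, 2.00 and 1.51 CPM at P7 and at 52.1, 57.5, 77.3 and 58.5 CPM at P42 (log2 fold change 4.63, SE 0.74, adjusted p = 2.3e-05), and P10 was still low at 4.18 ± 0.706 CPM. Il6, the inflammatory cytokine interleukin 6 (chr5:30013114-30019981), stood at 0.0516, 1.27 and 0.780 CPM at P7 and at 16.0, 16.4, 18.4 and 14.5 CPM at P42 (log2 fold change 4.54, SE 1.03, adjusted p = 0.0017), and was not called without P7 replicate 1 or 3 (adjusted p = 0.013 and 0.012). The platelet-derived growth factor genes Pdgfb and Pdgfa rose from 37.4 ± 5.32 to 122 ± 6.40 CPM and from 10.1 ± 1.87 to 27.0 ± 2.19 CPM, the call of Pdgfa being lost without P7 replicate 2 (adjusted p = 0.011). Igf1 fell, as given above. The other, Csf1, a ligand of Csf1r, fell from 118 ± 33.0 to 34.5 ± 17.7 CPM, with most of the drop by P10 (46.5 ± 7.96 CPM).

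Among chemokines, 1 of 18 tested rose and 1 fell, and DESeq2 called 3 higher. Each 1 is 5.56% of the list, beside 1.74% and 3.92% of all genes tested. The transmembrane chemokine gene Cxcl16 rose from 36.2 ± 1.30 to 109 ± 10.8 CPM, and Ccl6, a myeloid chemokine, fell from 671 ± 24.9 to 256 ± 28.6 CPM. Of 17 chemokine receptors tested, 2 rose and 2 fell (11.8% each, beside the same shares of all genes). Cmklr1, the chemerin receptor, rose from 17.7 ± 1.48 to 66.5 ± 11.3 CPM. The atypical receptor Ccrl2, which binds chemerin as well, stood at 8.95 ± 1.84 and 32.6 ± 7.70 CPM and was not called without P7 replicate 1 or 2 (adjusted p = 0.023 and 0.017). Cxcr2, a receptor for neutrophil-attracting chemokines (chr1:74153989-74161246), stood at 8.93, 7.13 and 13.9 CPM at P7 and at 10.5 ± 4.74 CPM at P10, and had no read in the 4 P42 libraries. It was at least 117-fold lower at the limit of 3 reads per library. The neutrophil markers were at or near 0 in the 7 libraries, with 4 of 9 at no read and a sum of at most 0.910 CPM over the 4 tested. Ackr3, an atypical receptor of Cxcl12, stood at 17.1 ± 3.86 and 1.71 ± 1.44 CPM, and was not called without P7 replicate 2 or P42 replicate 3 (adjusted p = 0.014 and 0.016). Of 17 tested purinergic genes, P2rx1, an ATP-gated channel, fell from 52.3 ± 3.57 to 11.1 ± 2.65 CPM, and none rose (1 without P7 replicate 2). P2rx1 alone is 5.88% of that list, beside 3.92% of all genes called lower.

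Lysosomal proteases changed in both directions. Of 30 lysosome genes 2 rose and 4 fell (6.67% and 13.3%, beside 1.74% and 3.92% of all genes tested). The median log2 fold change was -0.35. Ctsb, the protease cathepsin B (chr14:63122462-63145919), stood at 18060, 18700 and 19280 CPM at P7, 9632 ± 882 CPM at P10 and 5721, 5684, 6087 and 6346 CPM at P42 (log2 fold change -1.65, SE 0.07, adjusted p = 1.2e-16). Limma-voom gave Ctsb a log2 fold change of -1.62 and an adjusted p of 0.14. Ctsl fell from 6870 ± 289 to 2626 ± 194 CPM, the tetraspanin Cd63 from 745 ± 36.7 to 332 ± 43.5 CPM, and the glucuronidase gene Gusb from 1374 ± 83.2 to 545 ± 12.5 CPM. Other cathepsins rose. Ctsh went from 618 ± 19.8 to 2125 ± 194 CPM, and Ctsc, which activates serine proteases, from 1338 ± 24.3 to 2976 ± 198 CPM.

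Glycolysis genes fell in 5 of 23 cases, 21.7% beside 3.92% of all genes tested, and none rose (median log2 fold change -0.52). Without P7 replicate 1 or P42 replicate 3, 1 was called higher. Pkm, the last enzyme of the pathway, fell from 516 ± 63.8 to 166 ± 17.2 CPM, and Ldha, which makes lactate, from 518 ± 91.3 to 227 ± 22.7 CPM. In both the P10 libraries lay between, at 296 ± 21.1 and 286 ± 19.2 CPM. Several genes of this list have many processed pseudogenes that can take their reads. Of 29 tested matrix and adhesion genes 3 rose and 2 fell (10.3% and 6.9%, beside 1.74% and 3.92% of all genes tested). Mmp14, a membrane-bound metalloprotease, rose from 12.7 ± 2.49 to 67.0 ± 5.24 CPM. The transglutaminase gene Tgm2 rose from 0.615 ± 0.851 to 21.2 ± 6.68 CPM, and shares exon bases with Rprd1b on the other strand. Tgfbi, a matrix protein induced by TGF-beta, rose from 47.0 ± 10.0 to 99.6 ± 18.1 CPM, with a log2 fold change of 1.08 that fell to 0.96 without P7 replicate 2. The integrin gene Itgal fell from 8.03 ± 2.02 to 0.0370 ± 0.0741 CPM.

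**Figure D4:**
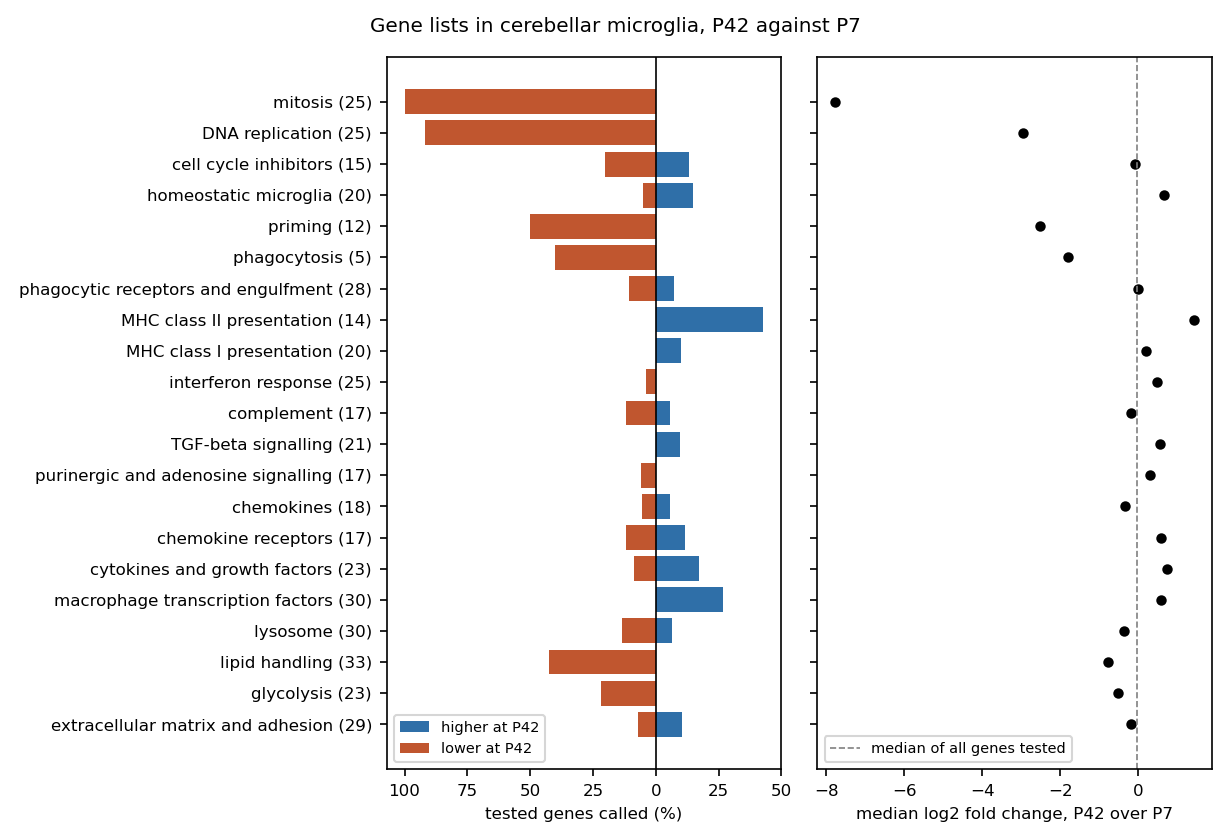
Left, the share of tested genes in each list (number tested in brackets) called higher or lower at P42 than at P7, in percent; right, the median log2 fold change of the list, with the median of all genes tested as a dashed line. Mitosis (25 of 25) and DNA replication (23 of 25) stand out among the lower, MHC class II (6 of 14) and transcription factors (8 of 30) among the higher.

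The change from P7 to P42 was then set against the same change in the Cx and in the CC, by a test of the difference between the changes. Against the Cx it differed in 100 genes, 41 more positive in the Cb (0.196% of the genes tested) and 59 more negative (0.282%). Against the CC it differed in 27 genes, 8 more positive (0.0382%) and 19 more negative (0.0908%), a count that was 17 without P7 replicate 1 of the Cb and 45 without P42 replicate 3 of the CC. With only the Cb and CC libraries of these ages in the fit, 14 genes differed. Of the 10 genes named below for the largest differences from the CC, 9 were not called in that fit. These were Cd83, Cdc25b, Dab2, Il7r, Khdrbs3, Pecam1, Ptprm, Tgfbi and Upk1b (adjusted p 0.012 to 0.14). Differences named below that are not among the largest, such as those of Tmem119 and Srebf2, were not examined gene by gene in the alternative fits. Of the 25 genes of the mitosis list none differed from the CC, and 1, Mki67, differed from the Cx, where all 4 P42 libraries were at 3 reads or fewer.

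Against the Cx, genes of lipid and sterol regulation stood on both sides. Srebf2, the regulator of sterol synthesis, stood at 38.5, 26.7 and 33.8 CPM at P7 and at 33.7, 38.0, 31.0 and 27.1 CPM at P42 in the Cb, and in the Cx at 98.6, 121 and 87.4 CPM and at 21.0, 21.0, 19.6 and 23.4 CPM. The libraries of both ages overlapped in the Cb and did not in the Cx (difference 2.24, SE 0.28, adjusted p = 6.4e-06). Lpl fell in both regions, less in the Cb (difference 2.19, SE 0.28, adjusted p = 7.7e-06). Abca1, Abcg1 and Scd2 went the opposite way, with differences of -2.22, -2.72 and -1.54 (adjusted p = 5.7e-06, 3.6e-11 and 2.9e-05). For Abcg1 the Cb fell while the Cx rose, from 65.3 to 206 CPM.

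Among the genes with the most positive differences from the Cx were Klf2, Emp3, Fxyd5 and Slc7a1. Klf2 stood at 45.0 CPM at P42 in the Cb and at 2.06 CPM in the Cx, from similar means of 21.7 and 21.3 CPM at P7 (difference 4.42, SE 0.40, adjusted p = 3e-08). Emp3, an epithelial membrane protein gene, was at 76.8 to 103 CPM at P42 in the Cb and at 10.3 to 17.3 CPM in the Cx (difference 2.59, SE 0.23). Fxyd5 and the amino acid transporter gene Slc7a1 differed by 2.48 and 2.42, and the call of Slc7a1 was lost when any 1 of P7 replicate 1, 2 or 3 or P42 replicate 2 or 3 of the Cb, or of P7 replicate 1 or 3 or P42 replicate 1, 3 or 4 of the Cx, was left out (adjusted p 0.014 to 0.028). The most negative differences were those of Pde2a, Upk1b, Lag3, Cd5l and Nbl1. Lag3, an inhibitory receptor that binds MHC class II (chr6:124904361-124911705), stood at 55.0, 61.7 and 52.6 CPM at P7 and at 20.1, 16.7, 29.3 and 18.4 CPM at P42 in the Cb, and in the Cx at 12.1, 12.1 and 10.0 CPM and at 57.3, 52.9, 60.4 and 52.8 CPM (difference -3.71, SE 0.27, adjusted p = 5.3e-10). The regions thus changed in opposite directions, and at P7 the Cb was the higher. Pde2a, a phosphodiesterase, went from 10.7 to 16.9 CPM at P7 to 3.50 to 10.5 CPM at P42 in the Cb, against 0.120 to 3.11 CPM and 13.0 to 34.1 CPM in the Cx, and it overlaps Arap1 on the same strand. Cd5l, a secreted scavenger protein of macrophages, had no read at P42 in the Cb and was at least 123-fold lower there than at P7 at the limit of 3 reads per library, while the Cx kept 2.34 CPM from 3.97 CPM. The CC also had no read of Cd5l at P42, from 5.58 to 11 CPM at P7. Lag3 and Pde2a went down in the CC as in the Cb. Lag3 stood there at 60.3 to 70.8 CPM at P7 and at 23.1 to 40 CPM at P42, and Pde2a at 34.3 to 41.6 and 13 to 30.5 CPM. With a block of replicate number within age the differences of Cd5l and Slc7a1 were not called (adjusted p = 0.013 and 0.010). Nbl1 stood under 15 CPM in all of these libraries.

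Upk1b, a uroplakin gene (chr16:38773184-38800203), changed less in the Cb than in either region. It stood at 8.76 to 14.7 CPM at P7 and at 21.7 to 50.4 CPM at P42 in the Cb, and at P42 reached 193 to 269 CPM in the Cx and 133 to 209 CPM in the CC. The differences were -4.12 (SE 0.52, adjusted p = 7.6e-06) from the Cx and -3.90 (SE 0.52, adjusted p = 6.9e-05) from the CC. Its own rise in the Cb was not called without P7 replicate 3 (log2 fold change 1.48, adjusted p = 0.018). The change of Il7r, Ptprm and Khdrbs3 was also less positive than in the CC, with differences of -3.83, -2.70 and -2.25. Limma-voom did not call these differences of Il7r and Khdrbs3 (adjusted p = 0.071 and 0.017), nor that of Upk1b from the CC (adjusted p = 0.014). Pecam1, which encodes the adhesion molecule CD31, stood at 37.7, 25.8 and 38.2 CPM at P7 and at 14.3, 7.29, 4.86 and 9.99 CPM at P42 in the Cb, and at 16.4 and 32.6 CPM in the CC, a difference of -2.89 (SE 0.48, adjusted p = 0.0012). The limma-voom adjusted p was 0.017. Pecam1 is also on the endothelial marker list, whose sum was 27.1 to 46.2 CPM at P7 and 7.80 to 22.7 CPM at P42 in the Cb with Cldn5 at no read, and its part in the difference was not tested.

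Some homeostatic genes had a less positive change in the Cb than in the CC. Tmem119, Selplg, Cst3, Slc2a5 and Sparc differed by -1.06, -1.18, -1.05, -1.14 and -1.10 (adjusted p = 0.00017, 5.7e-06, 3.5e-05, 0.00056 and 1.4e-06), 5 of the 20 genes of that list. For Tmem119 the Cb began at 1914 CPM at P7 against 1028 CPM in the CC, and ended at 5666 against 6340 CPM. For Tmem119 the Cb thus started higher and ended at a similar level. Slc2a5, Cst3 and Sparc ended lower in the Cb than in the CC, without overlap. Slc2a5 stood at 743 to 1020 CPM at P42 in the Cb and at 1350 to 1920 CPM in the CC. Sparc went from 7760 to 8190 CPM at P7 down to 6410 to 7210 CPM at P42 in the Cb. In the CC it went up, from 4710 to 5090 CPM to 8070 to 10300 CPM. Fcrls was the member that differed from the Cx, where it stood at 6924 and 7162 CPM (difference -1.10, SE 0.12, adjusted p = 3.6e-07). The chemokine gene Ccl6 and the glycolysis gene Tpi1 differed from the Cx by -1.46 and -1.02, with Ccl6 at 226 and 237 CPM and Tpi1 at 173 and 150 CPM in the Cx.

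The genes with the most positive differences from the CC were Racgap1, Dab2, Cdc25b, Tgfbi and Cd83. Racgap1, which acts in the last step of cell division, fell in both, to 2.87 to 5.39 CPM in the Cb and to 0.0358 to 0.470 CPM in the CC (difference 4.91, SE 0.74, adjusted p = 0.00038). The division phosphatase gene Cdc25b kept 0.620 to 4.83 CPM in the Cb at P42, while all 4 CC libraries were at 3 reads or fewer, and its call was lost without P7 replicate 1, 2 or 3 or P42 replicate 3 of the Cb, or P7 replicate 2 or P42 replicate 1, 2 or 3 of the CC (adjusted p 0.010 to 0.018). Dab2, an endocytic adaptor gene, fell from 162 to 227 CPM to 26.0 to 35.6 CPM in the Cb and further in the CC, with a call lost without P7 replicate 1 or 2 of the Cb or P7 replicate 3 of the CC (adjusted p = 0.019, 0.015 and 0.013). Cd83, a marker of activated antigen-presenting cells, stood at 354 and 542 CPM in the Cb and at 451 and 309 CPM in the CC (difference 1.16, SE 0.17, adjusted p = 0.00033), and without P7 replicate 3 of the CC the difference was 0.99. Tgfbi differed by 1.25 (adjusted p = 0.0082), a call that was lost without any 1 of 12 of the 14 libraries (adjusted p 0.015 to 0.051).

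**Figure D5:**
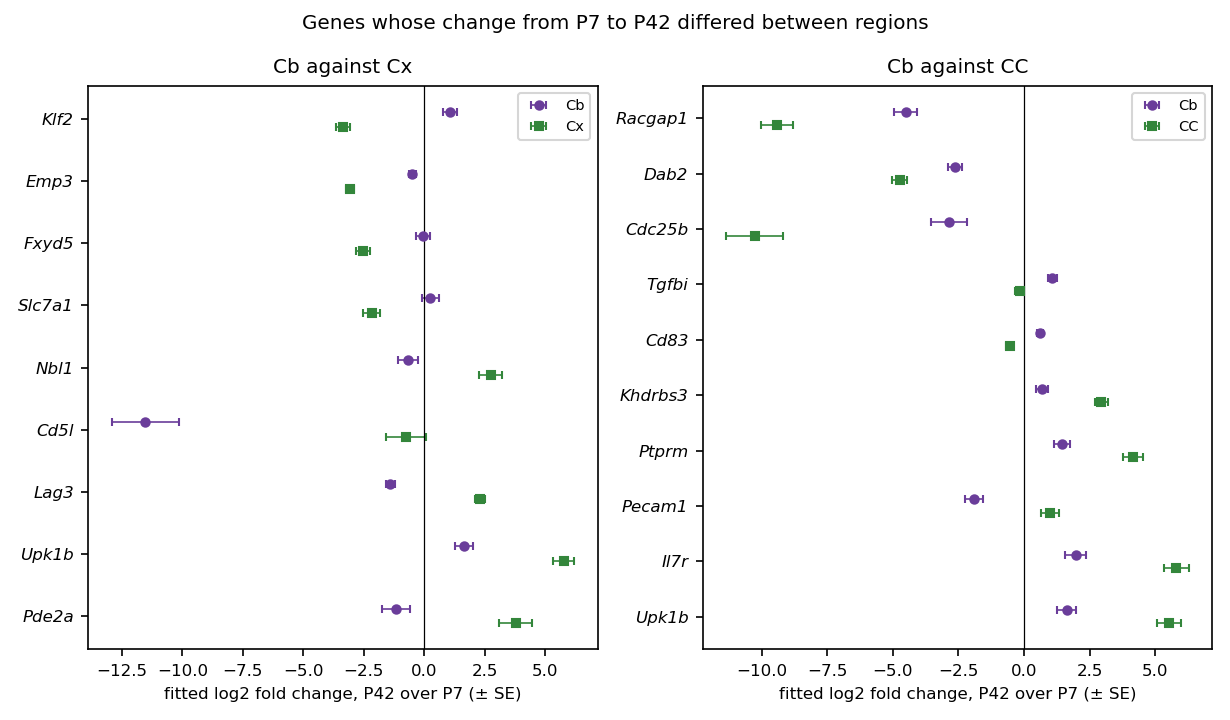
Points are fitted log2 fold changes of P42 over P7 with their SE, for genes among the 5 most positive and 5 most negative differences from the Cx (left) and from the CC (right). Klf2 rose in the Cb and fell in the Cx, Lag3 fell in the Cb and rose in the Cx, and Upk1b rose in all 3 regions, least in the Cb; the values of Cd5l (Cb) and Cdc25b (CC) come from groups at 3 reads or fewer and set no size.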

How the data were processed

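RNA of CD45+ CD11b+ Gr1- cells sorted from single brain regions was amplified from 1 ng with SMARTer v4 and made into Nextera XT libraries. The deposited table holds raw counts of reads per gene: the authors demultiplexed with CASAVA 1.8.2, aligned to GRCm38 with STAR 2.5.2b and counted with featureCounts 1.6.2, discarding multimapping reads and reads shared by genes. The study describes the settings as essentially standard, the default of the tool being to ignore strand, and names no strand option. Such discarding lowers counts of genes with near-identical copies or overlapping exons. Ctsb, Gas6, Irf5, Stab1, Cxcl16, Tpi1, Sult1a1 and P2ry12 are among the named genes with exons that overlap a gene on the other strand.

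Of 48587 genes, 17212 had no read, and the third of the rest with the lowest summed counts (10458 genes) was removed, as in the study's filter. The other 20917 were fitted with edgeR 4.0.16 (R 4.3.3; TMM factors, robust quasi-likelihood test) in 1 model of all 33 libraries and 9 region-by-age groups. The study used limma-voom, run here as an alternative (limma 3.58.1) beside DESeq2 1.42.0. A gene was called at a Benjamini-Hochberg adjusted p of 0.01 or less and a log2 fold change of at least 1. Every adjusted p is from edgeR unless another tool is named. Differences between regions are interaction contrasts of the same model. The fits were tested on simulated counts.

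The members and the gene lists were chosen with earlier results of these data known. Beside list members, the text names the 10 largest increases and 10 largest decreases among called genes whose mean reached 10 CPM at 1 age and whose libraries did not overlap, ranked by the log2 ratio of mean CPM plus 1, and the 5 most positive and 5 most negative called differences from each region. Gpx3 and the other genes named outside the lists come from that rule. Some results are not reported here. Fold bounds use a floor of 3 reads per library. Reads on the 92 spike-in sequences were left out. Replicate numbers were checked as pairs and did not pair P7 with P42 libraries, and no block was used in the reported fit. Same-numbered libraries of 1 age may come from 1 animal, which the labels do not say. Their deviations from the group mean correlated at 0.0377 to 0.191 (P7) and 0.00312 to 0.0528 (P42) between Cb and CC. Between Cb and Cx they correlated at -0.0997 to 0.0294 and 0.0301 to 0.104. All 4 ranges overlapped those of other-numbered libraries. A block of number within age gave 98 differences from the Cx and 30 from the CC. The alternatives were other scaling, other filters, sex or replicate number as a covariate, fewer groups in the fit, other tools, and leaving out each library.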

Additional observations from a re-analysis of the deposited data

Results flagged for a closer look

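Among 144 genes examined for this, 17 had 1 P42 library set apart from the other 3 by Dixon's criterion at 4 libraries. Chance gives about 1 in 20 for normally distributed values, which genes near 0 reads do not have. For Ube2c, Ccnb2, Pbk, Itgal and Cdc6 the other 3 libraries had no read, so any read in 1 library met the criterion. The count of 17 therefore cannot be set against that rate. The higher library was replicate 2 for Top2a (2.55 CPM), Rrm2 (1.04 CPM), Klf6 (501 CPM), Itgal (0.148 CPM), Fos (17.2 CPM) and Cd163 (3.23 CPM). It was replicate 3 for Mki67 (2.30 CPM), Ccnb2 (0.731 CPM) and Pbk (0.0522 CPM), and replicate 1 for Pdgfa (30.2 CPM) and Il7r (74.8 CPM). It was replicate 4 for Birc5 (0.230 CPM), Ube2c (0.0230 CPM), Cdc6 (0.0690 CPM), Scarb1 (52.2 CPM), Tmem119 (6250 CPM) and H2-Eb1 (15.8 CPM). The values of Ube2c, Cdc6 and Pbk are of 1 to 3 reads.

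Changes that differed between regions by the test of the difference are given as the change in the Cb minus that in the other region, on the log2 scale. From the Cx, the positive ones were Mki67 5.99, Klf2 4.42, Emp3 2.59, Fxyd5 2.48, Slc7a1 2.42, Srebf2 2.24, Lpl 2.19 and Tgfbi 1.54. The negative ones were Cd5l -10.77, Pde2a -4.95, Upk1b -4.12, Lag3 -3.71, Nbl1 -3.42, Itgax -3.03, Pecam1 -2.87, Abcg1 -2.72, Abca1 -2.22, Scd2 -1.54, Ccl6 -1.46, Fcrls -1.10 and Tpi1 -1.02. From the CC, the positive ones were Cdc25b 7.41, Racgap1 4.91, Dab2 2.13, Tgfbi 1.25 and Cd83 1.16. The negative ones were Upk1b -3.90, Il7r -3.83, Pecam1 -2.89, Ptprm -2.70, Khdrbs3 -2.25, Selplg -1.18, Slc2a5 -1.14, Sparc -1.10, Tmem119 -1.06 and Cst3 -1.05. The values of Cd5l, Mki67 (Cx) and Cdc25b (CC) rest on groups at 3 reads or fewer and set no size.

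Outside the genes, P42 replicate 3 of the Cb held 170 reads on the spike-in sequences, against 10 to 19 in the other 6 Cb libraries of P7 and P42.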

How the results depend on the processing

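The 1182 genes called between P7 and P42 became 1103 to 1234 under other scaling, filters, covariates or fewer groups, 1676 with limma-voom and 1555 with DESeq2, and 993 to 1101 when 1 Cb library was left out. The replicate block gave 1135. The same-numbered P7 and P42 libraries had correlations of their deviations between -0.0639 and 0.00182, so the numbers do not pair them. Genes called higher (363) were 343 with the replicate block, 546 with DESeq2 and 293 to 386 without 1 library. Genes called lower (819) were 792 with the block, 1195 with limma-voom and 672 to 760 without 1 library. The 100 differences from the Cx were 100 with the block, 237 with DESeq2 and 83 to 106 without 1 library. The 27 differences from the CC were 29 with the block, 14 with only the groups compared, 41 with limma-voom, 208 with DESeq2 and 17 to 45 without 1 library. The cause of these shifts was not tested. With the labelled sex as a covariate 1168 genes were called, 366 higher and 802 lower. Of the named genes, Cdkn1c and Stk26 lost their calls in that fit (adjusted p = 0.012 and 0.011). With the replicate block Ackr3, Cdkn1c, H2-Ab1, Ipcef1, Irf8, Klf2 and Stk26 were not called and H2-Eb1 was. On the Cb P7 and P42 libraries alone, Ackr3, Cdkn1c and H2-Ab1 lost their calls (adjusted p = 0.018, 0.014 and 0.018). With a block of number within age, Slc7a1 and Cd5l lost their difference from the Cx (adjusted p = 0.010 and 0.013). The signs of 4 genes that were not called changed without 1 library. Lgals3 ran from -0.38 to 0.31 (log2), with 0.046 without P42 replicate 1. Srebf2 ran from -0.12 to 0.12, with 0.0065, 0.0011, 0.036 and 0.054 in between. Cd74 ran from -0.38 to 0.090, with 0.0096 without P42 replicate 2, and Fxyd5 from -0.25 to 0.23. Genes with few reads at P42 have folds that depth limits, and 113 genes called lower had 3 reads or fewer in each P42 library.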
